A study of Mus musculus with 2 samples.

Results

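The proteasome subunit genes were followed in ependymal cells of the adult mouse spinal cord, without injury and 3 days after the dorsal funiculus had been cut. Members were all genes in the table of EpA cells, the name the submitters gave to the ependymal cells of the sort, whose symbol is Psma, Psmb, Psmc, Psmd, Psme, Psmf or Psmg followed by digits. This rule found 48 of 17189 listed genes. Psmb8, Psmb9, Psmb10, Psme1 and Psme2 are the 5 immune members, and the other 43 are called constitutive here.

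Both groups came from adult C57BL/6J mice, at least 12 weeks old, with the genotype Troy-CreERT2+/- x Rosa26-tdTomato. In these mice, cells that expressed Troy (Tnfrsf19) while the inducible Cre was active, and their descendants, carry a red fluorescent protein. tdTomato+ cells were sorted from 5 mm of cord around the lesion, or from the matching region of uninjured cord, and made into droplet libraries that tag the 3′ ends of transcripts. There was 1 library per condition, so no test of injury was possible, and the number of animals behind a library is not given in the sources used here. Every interval below is a 95% interval for counting error only, and reads amplified by PCR are collapsed by their molecular identifiers (UMIs). The label marks what drives the Cre, not a pure cell type: 156 of 711 kept cells in the uninjured library and 224 of 1228 in the injured library lay outside EpA.

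EpA cells numbered 555 in the uninjured library and 1004 in the injured one, with 7689179 and 25296289 UMIs and medians of 11387 and 20158.5 UMIs per cell. All 8 ependymal markers on the list used (Foxj1, Ccdc153, Tmem212, Rarres2, Mia, Rsph1, Dynlrb2 and Pltp) were above 100 CPM (counts per 1000000 UMIs) in EpA cells of both libraries. Their summed level was 9919 CPM without injury and 2698 CPM after it. Levels below are CPM over the UMIs of the same cells, and were not divided by transcript length, since each captured transcript is tagged once at its 3′ end. With values per total UMIs alone, fewer cells with a transcript and fewer transcripts per cell cannot be told apart. Shares of cells with an immune UMI at equal depth are given below.

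The proteasome is the barrel-shaped protease that degrades proteins tagged with ubiquitin. Its 20S core is built of rings of alpha subunits (Psma), which gate the entrance, and beta subunits (Psmb), some of which cut the substrate. The 19S cap holds ATPases (Psmc), which unfold substrates, and non-ATPase subunits (Psmd), which bind and remove ubiquitin. Interferon induces Psmb8, Psmb9 and Psmb10, which take the places of Psmb5, Psmb6 and Psmb7 to form the immunoproteasome, and Psme1 and Psme2, which form an activator ring that replaces the cap. Such particles make peptides for class I antigen presentation, and blood-derived and microglial cells are known for high levels of them.

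In the mouse genome (GRCm38, GENCODE M21) all 5 immune members are protein-coding genes. Psmb8 lies at chr17:34197721-34201454 on the plus strand and Psmb9 at chr17:34181987-34187764 on the minus strand, both in the class II histocompatibility region beside the peptide transporter gene Tap1. The first bases of Psmb9 overlap Tap1 on the opposite strand. Psmb10 lies at chr8:105935735-105938444, Psme1 at chr14:55578123-55581529, where it overlaps Emc9 on the opposite strand, and Psme2 at chr14:55587441-55591113. Whether the counting used strand is not given in the sources used here. A retrocopy, Psme2b, held 3 UMIs in the EpA cells of the uninjured library and 27 in those of the injured one, and reads of Psme2 that match both could have been split, so that values of Psme2 are uncertain.

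Promoter sequences are shown because the immune genes are named for their induction by interferon, and because Nfe2l1, a factor that induces proteasome genes, reads a different motif. RefSeq promoters (GRCm38.p6, 250 bases before to 50 after the annotated start) were found for 40 of the 48 members, in 43 promoters. The core of the interferon-stimulated response element, searched on both strands as GAAA, 2 bases of any kind and GAAA again, was in 5 of the 43, or 11.6%, and in 3.44% of all 32851 promoters of the table. Of the 5 immune members Psme1 alone held it, just after the RefSeq start, and the other matches were in constitutive members. The 30 bases around each match, read 5′ to 3′ on the strand of the gene with the match in capitals, were:
Psme1, chr14:55578493-55578522, plus strand: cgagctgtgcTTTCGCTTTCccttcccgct
Psmg4, chr13:34162969-34162998, plus strand: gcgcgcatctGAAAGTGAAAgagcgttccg
Psmb3, chr11:97703261-97703290, plus strand: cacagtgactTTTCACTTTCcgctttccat
Psmd4, chr3:95042675-95042704, minus strand: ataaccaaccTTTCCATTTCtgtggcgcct
Psmd9, chr5:123228021-123228050, plus strand: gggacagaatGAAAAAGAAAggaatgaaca
The STAT motif TTCNNNGAA, which reads alike on both strands, was in 3 of 43 member promoters (6.98%), those of Psmb8, Psmd2 and Psmg1, and in 8.3% of all promoters. The 30 bases around the match of Psmb8, with it in capitals, were:
Psmb8, chr17:34198087-34198116, plus strand: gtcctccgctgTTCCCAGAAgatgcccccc
The core TGACNNNGC, the motif read by Nfe2l1 and related factors, was in 6 of 43 (14%), against 12.4% of all promoters, and CCAAT in 14 of 43 (32.6%), against 37.4%. None of the 4 motifs overlapped another in a member promoter. The 6 with the TGACNNNGC core were Psmb5, Psmb6, Psmc6, Psmd12, Psmd9 and Psme4. Counted from the start, the match began at -47 in Psmb5, -9 in Psmb6, -31 in Psmd9 and -7 in Psme4. In Psmc6 and Psmd12 it began at -227 and -247. No promoter was found for Psmb7, the counterpart of Psmb10. The matches of Psmb5 and Psmb6, the constitutive counterparts of Psmb8 and Psmb9, were:
Psmb5, chr14:54618024-54618053, minus strand: acgtgaagttgTGACGTCGCggcgttgcca
Psmb6, chr11:70525337-70525366, plus strand: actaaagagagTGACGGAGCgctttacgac
For Psmb8, Psme1 and Psmd9 the RefSeq start lies after the first GENCODE start, so that the bases shown lie inside the GENCODE gene. A match is a run of letters and says nothing of binding.

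In EpA cells, most constitutive proteasome genes were somewhat higher after injury and the immune members were higher by more. Summed over the 43 constitutive members, the level was 4631 CPM without injury and 6193 CPM after it, 1.34-fold higher (1.32 to 1.35). Summed over the 5 immune members it was 123 and 244 CPM, 1.99-fold higher (1.85 to 2.13). The 19S assembly chaperones went the other way, from 205 to 155 CPM.

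**Figure D1:**
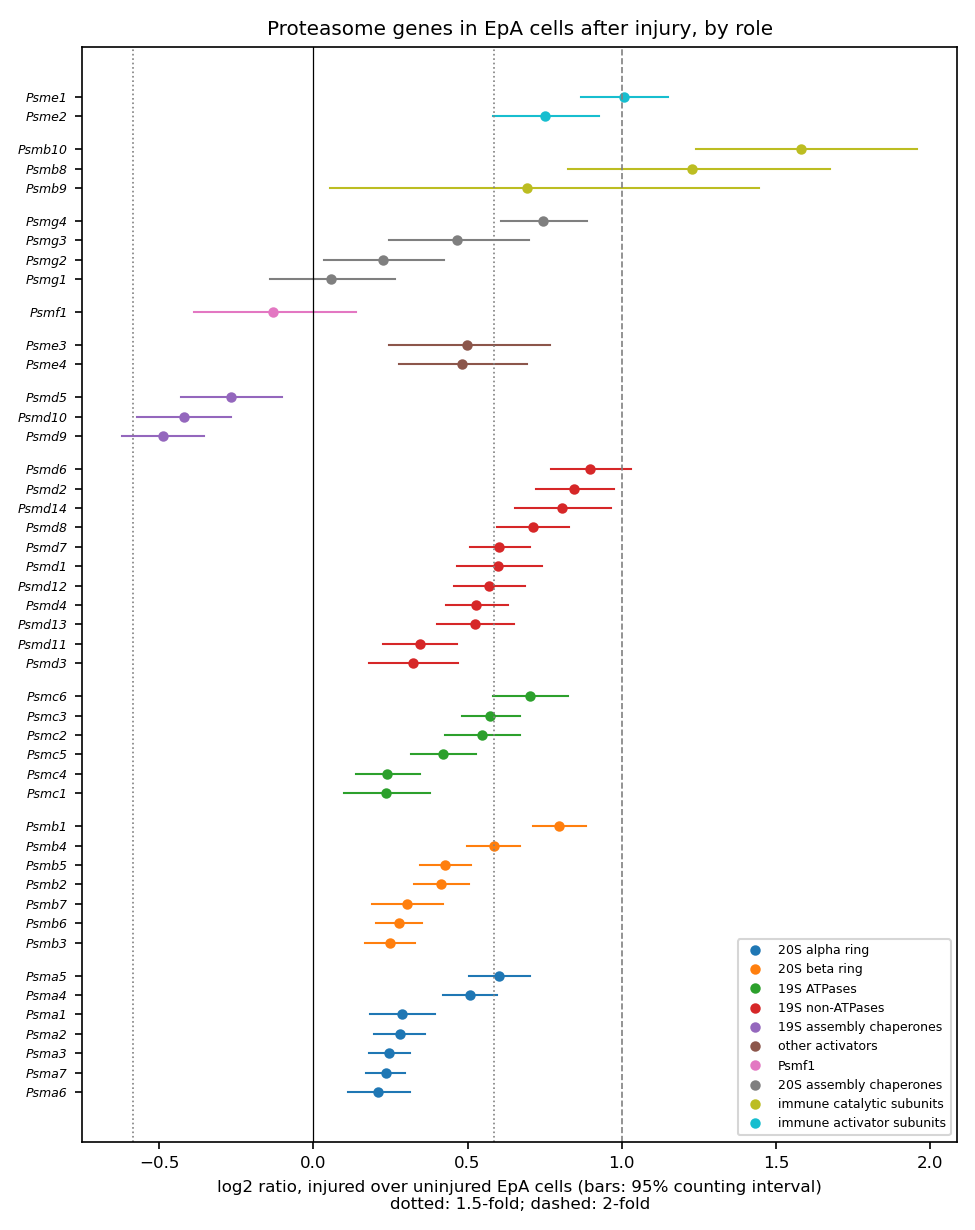
Log2 ratio of CPM, injured over uninjured EpA cells, for the 46 members with UMIs enough for a fold, ordered by role, with bars for the 95% counting interval and lines at no difference, 1.5-fold and 2-fold. The immune members reach 1.58 (Psmb10), the constitutive members run from -0.49 (Psmd9) to 0.90 (Psmd6), and the 19S assembly chaperones lie left of 0.

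A size of 1.5-fold was used to count genes, among those with at least 50 CPM in either library. Of 35 constitutive members measured, 10 were at least 1.5-fold higher after injury, 0 were lower by that size, and 0 reached 2-fold in either direction. Among all 3706 genes with that level, 21.1% were higher and 24% lower by 1.5-fold or more, and 10.8% and 13.8% by 2-fold or more. With a level of 5 CPM, which 41 constitutive members had in both libraries, the same 10 members made up 24.4%, against 21.5% of all genes (22.7% were lower), so the share of higher members was near the background, while 0 members were among the lower genes. Most constitutive members differed by a small amount in the same direction: 37 of these 41 lay above no change, their median log2 ratio was 0.43, and that of all genes was -0.03. The count depends on how deep cells are weighed: it was 1 when every cell was weighted alike, and 4 when cells were thinned to 2000 UMIs.

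The alpha ring, the gate of the core, had the smallest ratios of the core and cap. Psma7 was its most abundant member, with 342 CPM without injury and 402 CPM after it, and Psma1 its least, with 119 and 146 CPM. Log2 ratios ran from 0.21 for Psma6 (134 and 155 CPM) to 0.60 for Psma5 (129 and 196 CPM), with a median of 0.28. Psma5 was the 1 of 7 at least 1.5-fold higher, where 21.1% of all genes were.

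The beta ring holds the cutting subunits. The 3 that immune subunits replace were higher by less than 1.5-fold: Psmb5, with chymotrypsin-like activity, had 194 and 261 CPM (log2 ratio 0.43). Psmb6, with caspase-like activity, had 236 and 286 CPM (0.28). Psmb7, with trypsin-like activity and the lowest level of the ring, had 99.6 and 123 CPM (0.30). Psmb1, a structural subunit that does not cut, stood apart at 173 and 301 CPM (0.80, 1.64-fold to 1.84-fold). It was the 1 of 7 at least 1.5-fold higher, where 21.1% of all genes were. Psmb4, also structural, was just under 1.5-fold at 171 and 257 CPM.

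Within the 19S cap the ATPases had a median log2 ratio of 0.48. Psmc6 was highest among them at 0.70 (87.3 and 142 CPM), Psmc3 was the most abundant (142 and 212 CPM) and Psmc1 the least (68.1 and 80.3 CPM). The non-ATPase subunits had a median of 0.60, with 6 of 11 at least 1.5-fold higher, where 21.1% of all genes were. Psmd6 was highest, with 74.4 CPM without injury and 139 CPM after it (0.90, 1.71-fold to 2.04-fold). Psmd2, a scaffold that binds ubiquitin receptors and shuttle factors, had 78.0 and 140 CPM (0.84). Psmd14, the enzyme that removes ubiquitin chains from substrates before they enter, had 51.8 and 90.6 CPM (0.81) and was the least abundant without injury, while Psmd7, its partner, was the most abundant (134 and 204 CPM). All 11 were above no change, down to Psmd3 at 0.32.

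The 19S assembly chaperones help the cap to form and are not part of the finished particle. Psmd9 had 86.5 CPM without injury and 61.7 CPM after it, a ratio of 0.651 to 0.782. Psmd10 had 64.2 and 48.0 CPM, and Psmd5 had 54.2 and 45.1 CPM. These were the 3 lowest of the constitutive members measured, at log2 ratios of -0.49, -0.42 and -0.27, and none reached 1.5-fold lower. Their direction held under each scaling tried except UMIs per cell without scaling, where they were at 0.37, 0.44 and 0.59 while the median of all genes was at 0.87. Psmd9 overlaps Hpd, and Psmd5 overlaps Cutal, each on the opposite strand.

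The chaperones of the 20S core differed among themselves. Psmg4 was higher, with 63.9 and 107 CPM (1.52-fold to 1.85-fold). Psmg3 had 25.5 and 35.3 CPM and Psmg2 36.0 and 42.2 CPM, while Psmg1 had 33.9 and 35.4 CPM, a ratio whose interval (0.907 to 1.20) included no difference. The nuclear activator Psme3 had 19.4 and 27.4 CPM, the large activator Psme4 had 30.7 and 42.9 CPM, and the proteasome inhibitor Psmf1 had 21.2 and 19.4 CPM (0.765 to 1.10). The tissue-restricted core subunits were at or near 0: Psma8, made in testis, had 0 and 2 UMIs, and Psmb11, made in the thymus cortex, had 0 and 7 UMIs, where a count of 0 allows up to 0.39 CPM in uninjured EpA cells.

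Among the immune members the catalytic subunits were scarce in EpA cells. Psmb10 had 73 UMIs (9.49 CPM) without injury and 723 UMIs (28.6 CPM) after it, a log2 ratio of 1.58 (2.36-fold to 3.88-fold). Psmb8 had 54 UMIs (7.02 CPM) and 419 UMIs (16.6 CPM), a log2 ratio of 1.23 (1.77-fold to 3.19-fold). Psmb9 had 22 UMIs (2.86 CPM) and 119 UMIs (4.70 CPM), a log2 ratio of 0.69 (1.04-fold to 2.72-fold), and lay below the 5 CPM needed to be counted. The activator subunits were more abundant: Psme1 had 60.7 and 122 CPM (1.01, 1.82-fold to 2.22-fold) and Psme2 42.7 and 71.8 CPM (0.75, 1.5-fold to 1.90-fold). Of the 4 measured, all in both libraries, 3 were at least 2-fold higher, against 12.4% of the 11116 genes with at least 5 CPM (12.2% were at least 2-fold lower). The UMIs were spread over many cells: after injury the 419 UMIs of Psmb8 lay in 242 of 1004 cells, with at most 13 in one, and the 723 of Psmb10 in 384 cells, with at most 9. The number past 2-fold was 0 when cells were thinned to 2000 UMIs and 1 when every cell was weighted alike.

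**Figure D2:**
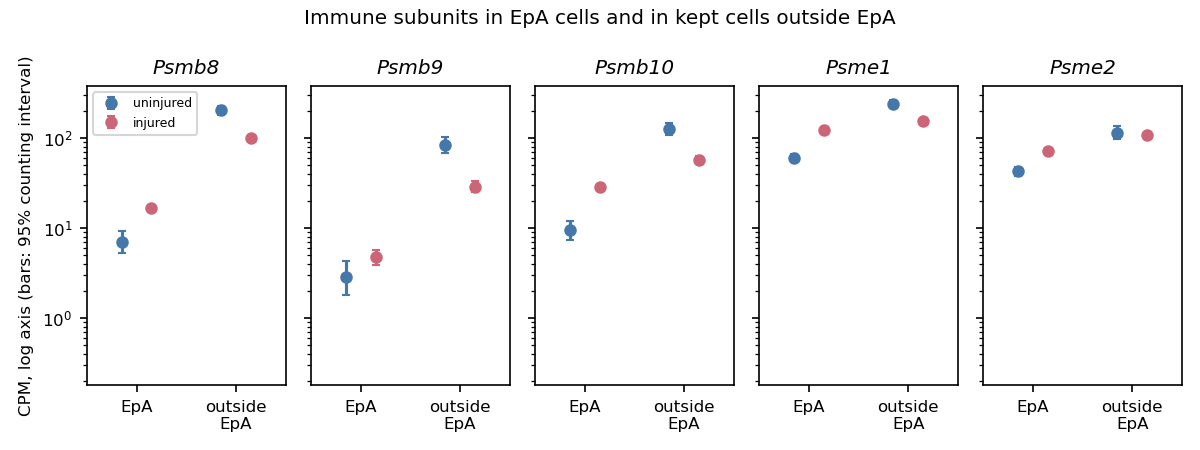
CPM of the 5 immune members, on a log axis, in EpA cells and in kept cells outside EpA of each library, with 95% counting intervals. In EpA cells the injured library is above the uninjured one for each gene, for example 9.49 and 28.6 CPM for Psmb10, while outside EpA it is below, for example 126 and 57.0 CPM.

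Immune members made up 2.58% of all proteasome UMIs in uninjured EpA cells (2.42 to 2.75) and 3.79% in injured ones (3.69 to 3.88). This share does not depend on the library total. Taken pair by pair, Psmb10 made up 8.70% of Psmb10 and Psmb7 UMIs without injury (6.88 to 10.8) and 18.8% after it (17.6 to 20.1). Psmb8 made up 3.50% of Psmb8 and Psmb5 UMIs (2.64 to 4.54) and 5.97% (5.43 to 6.55). Psmb9 made up 1.20% of Psmb9 and Psmb6 UMIs (0.752 to 1.81) and 1.62% (1.34 to 1.93), intervals that overlap. In EpA cells of both libraries the constitutive form had the more UMIs in each pair. Over all kept cells, EpA and others together, the immune share was 4.52% without injury and 4.31% after it.

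RNA from other cells was measured beside these values. In EpA cells the 12 microglia markers summed to 49.6 CPM without injury and 45.2 CPM after it, and the 10 endothelial markers to 28.5 and 24.6 CPM, none of the 22 at 0 in either library. The 6 lymphocyte and granulocyte markers summed to 8.19 and 3.00 CPM, with 3 and 2 of them at 0. Without the 46 uninjured and 119 injured EpA cells that held a UMI of a defining microglia or endothelial marker, the log2 ratio of the summed immune members was 0.95, against 0.99 with them. Immune members at least 2-fold higher then numbered 2, against 3 with those cells, and the share of all genes was not counted there. The share of mitochondrially encoded UMIs also differed, with medians of 11.2% and 6.76%, and its part in the result was not tested beyond the rescaled values given at the end.

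Proteasome UMIs were also counted cell by cell in EpA cells. To compare cells at 1 depth they were thinned to 2000 UMIs, and 8 shallower EpA cells of the uninjured library and 12 of the injured one were dropped. At this depth the median count over all constitutive members was 9 in uninjured cells (10th to 90th percentile 5 to 13) and 11 in injured cells (6 to 16.9). The distributions overlapped over most of their range and the injured cells reached further up. At the same depth, 22.3% of uninjured cells and 35.2% of injured cells held a UMI of an immune member. For Psmb8 the shares were 1.65% and 2.62%, and for Psmb10 2.01% and 3.83%.

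**Figure D3:**
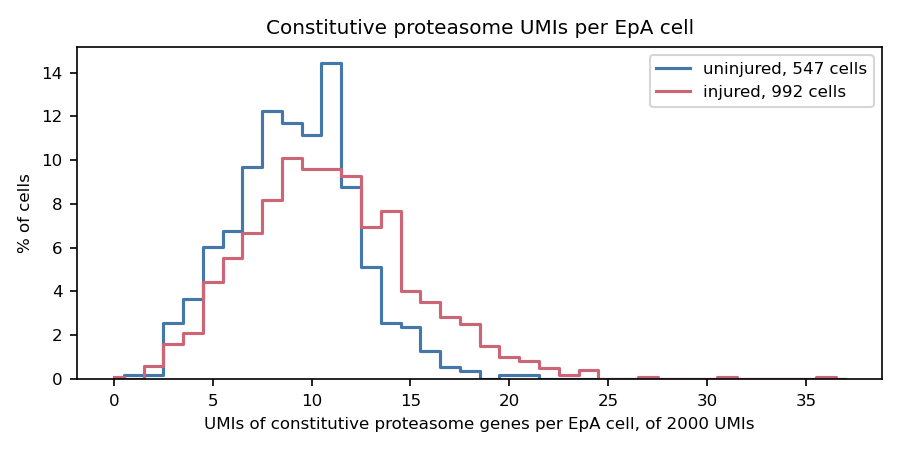
Share of EpA cells, in percent, by the number of constitutive proteasome UMIs per cell after thinning to 2000 UMIs, for 547 uninjured and 992 injured cells. The medians are 9 and 11, and the injured cells extend to 36, the uninjured ones to 21.

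Injured EpA cells were not uniform. They were divided by the share of UMIs from 47 cilium genes, a list without proteasome members, at 0.85% of UMIs, the 5th percentile of uninjured cells. Of the 992 thinned injured cells, 434 were within the range of the uninjured cells and 558 below it, with 116 within 20% of the dividing value. Cells below had a median of 28496 UMIs and cells within 11579, and all 108 injured cells with transcripts of at least 2 of 10 core cycle genes lay below.

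The higher constitutive level was found in the cells below the cilium range. Against the 524 uninjured cells within the range (4629 CPM), the constitutive sum was 1.05-fold higher in injured cells within it (4842 CPM, 1.03 to 1.06) and 1.43-fold in those below (6642 CPM, 1.42 to 1.45). For injured cells within, 0 of 35 members were higher by 1.5-fold, against 2.46% of all genes, 0 were lower by it, against 1.41%, and the median log2 ratio was 0.04, near the 0.03 of all genes. For those below, 17 of 35 were at least 1.5-fold higher, against 27.4% of all genes, with a median of 0.54 against 0.02. Psmd6 had 74.6 CPM in the uninjured cells, 91.1 CPM in injured cells within and 155 CPM in those below. At 2000 UMIs per cell the medians of constitutive UMIs were 9 within and 12 below, so the order held at equal depth.

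Psmd9 ran against that pattern, with 88.3 CPM in the uninjured cells, 93.6 CPM in injured cells within the range and 51.1 CPM in those below (0.523 to 0.640 of the uninjured level). It was the 1 constitutive member at least 1.5-fold lower, where 28.7% of all genes were. Psmd10 had 64.4, 59.3 and 44.2 CPM in the same order, and Psmd5 54.3, 54.7 and 41.9 CPM. Set directly against injured cells within the range, those below had 13 of 35 constitutive members higher by 1.5-fold or more and 1 lower, where 22.9% and 27.6% of all genes were. In injured cells within the range, the intervals of all 3 chaperones included no difference from uninjured cells.

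The immune sum was higher in both kinds of injured cell. It was 1.38-fold higher in injured cells within the range (120 and 165 CPM, 1.26 to 1.51) and 2.25-fold in those below (270 CPM, 2.09 to 2.42). Psmb8 had 6.25 CPM in uninjured cells, 13.3 CPM in injured cells within and 17.6 CPM in those below. Psmb10 had 8.83, 13.3 and 33.7 CPM, so that it was 2.53-fold higher below than within (2.01 to 3.21), whereas for Psmb9 that ratio was 1.03 (0.671 to 1.62). Psme1 had 59.5, 83.5 and 135 CPM and Psme2 had 42.8, 50.8 and 78.8 CPM. The immune share of proteasome UMIs was 2.53% in the uninjured cells, 3.30% in injured cells within and 3.90% in those below.

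**Figure D4:**
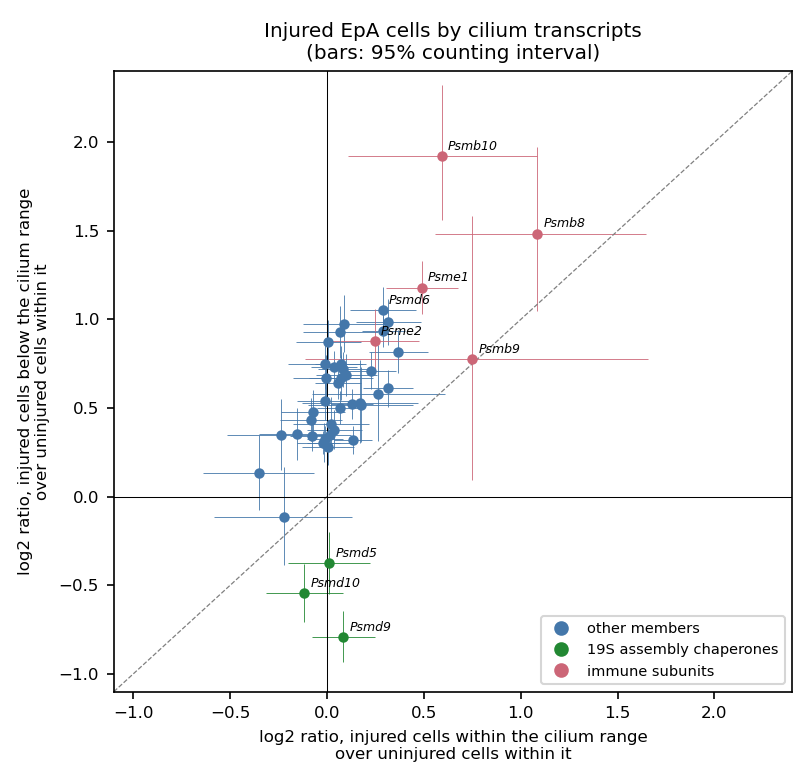
Each point is a member; the horizontal axis is the log2 ratio of injured EpA cells within the cilium range over uninjured cells within it, the vertical axis that of injured cells below the range over the same uninjured cells, with 95% counting intervals. The constitutive members spread upward from near 0 (medians 0.04 and 0.54), the 19S assembly chaperones lie below 0 on the vertical axis, and the axes share their uninjured cells.

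The 108 injured cells with cycle transcripts had the highest constitutive sum, 7822 CPM, against 6101 CPM in the other 450 cells below the range. Their immune sums were close, 272 CPM (259 to 285) and 269 CPM in cells without cycle transcripts, so that the immune share was lower in cells with them, 3.36% (3.20 to 3.52) against 4.22% (4.08 to 4.36). Psmd6 was at 184 CPM in cells with cycle transcripts and 141 CPM in the others below the range. Psmb10 was at 33.0 and 34.0 CPM, whose intervals overlapped. The cells with cycle transcripts were deeper, with a median of 52066.5 UMIs.

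Outside EpA the immune members had far higher levels and the opposite difference between libraries. In the uninjured library Psmb8 was 29.1-fold higher outside EpA than in it (21.6 to 39.8), Psmb9 29.5-fold (18.5 to 48.9) and Psmb10 13.3-fold (10.0 to 17.8), while Psme1 was 3.96-fold and Psme2 2.71-fold higher. In the injured library the ratios were 5.99 for Psmb8, 6.10 for Psmb9, 1.99 for Psmb10, 1.26 for Psme1 and 1.49 for Psme2. Constitutive members did not share this: their median log2 ratio, outside over EpA, was -0.17 in the uninjured library and 0.18 in the injured one. Of 35 measured in the uninjured library 0 were higher outside by 1.5-fold or more and 3 lower, where 32.1% and 32.9% of all genes were. The 3 were the 19S assembly chaperones, which had 50 CPM in EpA cells alone. Of 33 in the injured library 1 was higher and 1 lower, where 22.4% and 25.4% of all genes were.

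Between libraries, cells outside EpA had 204 CPM of Psmb8 without injury and 99.3 CPM after it, 84.3 and 28.7 CPM of Psmb9, and 126 and 57.0 CPM of Psmb10. Psme1 had 240 and 154 CPM and Psme2 115 and 107 CPM (0.777-fold to 1.11-fold). All 5 were measured in both libraries and 4 were at least 1.5-fold lower, against 37.7% of genes with at least 5 CPM, and 3 at least 2-fold lower, against 24.6%. The constitutive sum outside EpA was 4025 and 7034 CPM, 1.75-fold higher (1.70 to 1.80), with 30 of 41 members higher by 1.5-fold or more and 0 lower, against 17.9% and 37.7% of genes with at least 5 CPM, a level all 41 had in both libraries. Of the 41, 4 were at least 2-fold higher, against 9.08% of all genes. Psmd9, lower in EpA cells, had 29.6 and 55.8 CPM outside EpA, higher by less than 2-fold. The immune share of proteasome UMIs was 16.1% without injury (15.2 to 17.0) and 5.96% after it (5.76 to 6.17), and Psmb8 made up 56.0% and 23.7% of Psmb8 and Psmb5 UMIs.

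The cells outside EpA were of different kinds in the 2 libraries, so these sums cover different mixes. They were grouped into 9 clusters without proteasome genes. A microglia-like cluster held 24 uninjured cells and 1 injured cell, and an unnamed cluster led by Mest, with 9 of 10 endothelial markers above 100 CPM, held 4 and 62. The immune share of proteasome UMIs was 19.8% in the uninjured microglia-like cells and 4.45% in the injured cells of the Mest cluster. The Mest cluster held 3520416 of the 6969678 UMIs of injured cells outside EpA, with a constitutive sum of 7557 CPM. An unnamed cluster led by Ackr1, with all 10 endothelial markers above 100 CPM, held 27 and 17 cells and had shares of 21.4% (19.6 to 23.2) and 10.1% (8.82 to 11.5). In that cluster the summed immune level was 2.0-fold lower in the injured library (1.69 to 2.37). Its constitutive sum was 1.21-fold higher (1.13 to 1.29), less than the 1.75-fold over all cells outside EpA. An unnamed cluster led by Hbb-bs, again with all 10 endothelial markers above 100 CPM, held 19 and 18 cells, had shares of 18.4% (15.6 to 21.5) and 12.7% (10.5 to 15.1), and was 1.43-fold lower in summed immune level (1.10 to 1.85). In the Hbb-bs cluster the constitutive sum had a ratio of 1.09 (0.976 to 1.22), an interval that included no difference. The summed immune level was lower in both of these clusters. Without the microglia-like cluster, the immune shares over the cells outside EpA were 15.5% without injury and 5.95% after it. That is a difference of -9.54 points, against -10.1 points with all clusters. Without the clusters led by S100a9, Cd74 and P2ry12, a setting not planned beforehand, they were 15.2% and 4.98% (-10.2 points). Beyond these removals, the part of the cell mix in the difference over all cells outside EpA was not tested. The cluster led by S100a9 and S100a8 held different cells in each library: its 16 uninjured cells summed to 103006 CPM of lymphocyte and granulocyte markers and 14283 CPM of microglia markers, its 30 injured cells to 187 and 27172 CPM. Their immune shares were 16.8% and 13.2%, and no ratio is read between them.

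**Figure D5:**
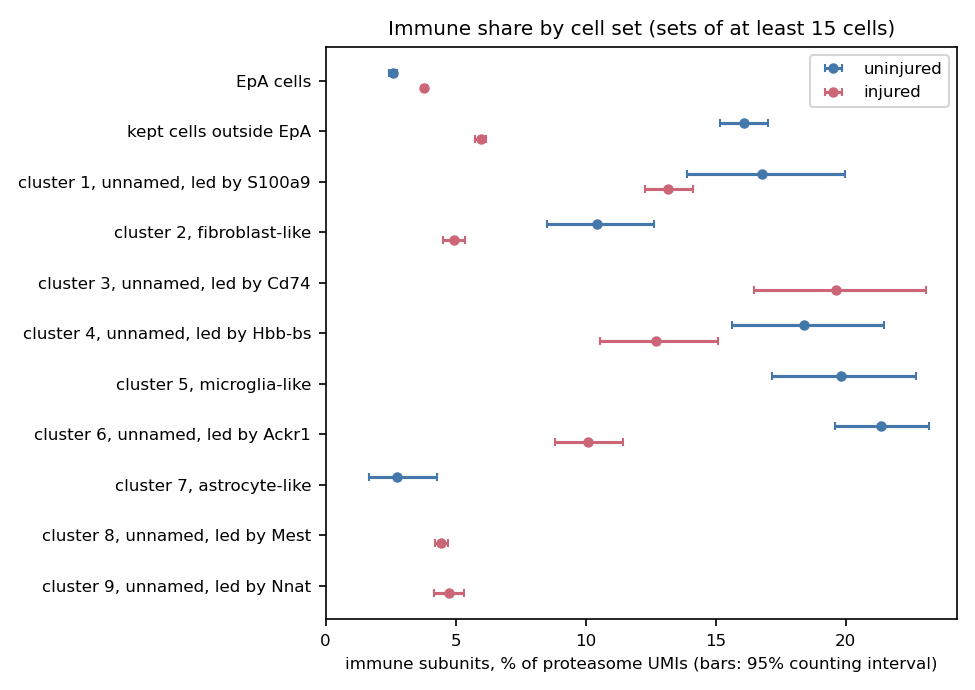
Immune members as a percent of all proteasome UMIs in EpA cells, in all kept cells outside EpA, and in each cluster of those cells with at least 15 cells in a library, with 95% counting intervals. EpA cells lie at 2.58% and 3.79%, the astrocyte-like cluster at 2.76% in the uninjured library, and the microglia-like cluster at 19.8%.

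The 29 uninjured cells of the astrocyte-like cluster had an immune share of 2.76% (1.67 to 4.27), an interval that included the 2.58% of uninjured EpA cells, and 0 UMIs of Psmb8, which allows up to 13.2 CPM, above the 7.02 CPM of uninjured EpA cells. An unnamed cluster led by Nnat held 34 injured cells with a share of 4.73% (4.17 to 5.34), and summed to 1729 CPM of ependymal and 1996 CPM of endothelial markers. Its 4 uninjured cells were too few to describe. A fibroblast-like cluster of 29 and 35 cells had 10.4% (8.52 to 12.6) and 4.92% (4.51 to 5.37), but its uninjured cells had a median of only 1040 UMIs. Its summed immune level, injured over uninjured, had a ratio of 0.795 (0.636 to 1.004), an interval that included no difference. Its constitutive sum was 1.79-fold higher (1.67 to 1.93).

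Genes that work with the proteasome and lie outside the symbol rule were followed in EpA cells from lists. Of 21 partner genes 19 had at least 5 CPM in both libraries, 4 of them at least 1.5-fold higher and 1 lower, where 21.5% and 22.7% of all genes were, with a median log2 ratio of 0.29. Usp14, which trims ubiquitin at the cap, had 44.5 and 78.2 CPM. The lower gene was the chaperone Hspa4, with 604 and 340 CPM. Pomp, which closes the core during assembly, had 213 and 272 CPM, the ubiquitin receptor Adrm1 40.6 and 53.8 CPM, the small cap subunit Sem1 760 and 693 CPM, and the factor Nfe2l1 131 and 163 CPM. Of 17 ubiquitin genes 16 had that level in both libraries, 4 of them at least 1.5-fold higher and 0 lower, against the same 21.5% and 22.7%, while the polyubiquitin gene Ubb had 2594 and 1995 CPM.

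The genes of the interferon and class I pathway differed in direction. Of 23 on the list 18 had at least 5 CPM in EpA cells of both libraries, and 5 of these were at least 1.5-fold higher and 2 lower, where 21.5% and 22.7% of all genes were. A further 2 passed that level only in the injured library, where they were higher. The median log2 ratio of the 20 was 0.37, with 15 above no change and 5 below it. Among all 11116 genes at that level 5403 lay above no change. B2m, the light chain of class I molecules, had 19.2 and 188 CPM, 8.27-fold to 11.6-fold higher. Irf1, a regulator of immune proteasome genes, had 8.06 and 7.55 CPM (0.700-fold to 1.27-fold). Nlrc5, which induces class I genes, had 4 and 19 UMIs, or 0.520 and 0.751 CPM. Its interval (0.480-fold to 5.84-fold) included no difference. Tap1, which overlaps Psmb9 at its start, had 3.38 and 4.19 CPM, and its partner Tap2 had 36.8 and 18.1 CPM, a log2 ratio of -1.03. Outside EpA 16 of 22 genes on this list were lower by at least 1.5-fold after injury, with a median of -0.98, where 37.7% of all genes were.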

How the data were processed

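The deposited files hold counts: whole UMIs per gene and cell, for each library and for the kept and EpA cells. The submitters' processing notes name Cell Ranger 3.0.1, Seurat and mm10, and per the labels' protocols the Chromium 3′ kit v2 was used. The EpA assignment is the authors' own. Values shared by the tables were identical. The libraries shared 18 barcode sequences, 2 of them EpA in both, which were kept as separate cells. 1 member absent from the table of the uninjured library was taken as 0.

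UMIs were summed per library and cell set and scaled to CPM. Log2 ratios had 0.5 counts added. Intervals are exact Poisson for levels, exact conditional binomial for ratios and Clopper-Pearson for shares, at 95%, and cover counting error only. A count of 0 allows up to 3 counts. With 1 library per condition, sizes were read in place of tests: 1.5-fold and 2-fold, at 50 CPM (5 CPM for immune members) in either library. Cells were thinned to 2000 UMIs where stated. Cells outside EpA were clustered without Psm genes (scanpy 1.11.5, 2000 variable genes, 20 components, 15 neighbours, Leiden resolution 0.5). A cluster was named from a marker list with 3 markers above 100 CPM and 2 among its 10 leading genes, unless another list had the larger sum in either library (15 cells or more). No doublets were called or removed. Python 3.11.15, numpy 2.4.6, pandas 2.3.3 and scipy 1.17.1 were used, and edgeR 4.0.16 only for an alternative scaling. The fold sizes and ratio intervals were tested on Poisson counts simulated from the pooled EpA profile, for genes at or above 50 CPM. Such counts hold no variation between cells or animals. Thinning, the cilium split and clustering were not tested in this way.

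Genes named were the immune members and the subunits they replace, Psme3, Psme4, Psmf1, the Psmg genes, the 4 highest and 4 lowest constitutive members, the most and least abundant of each role, and 12 partners, of which 2 are not reported here; Psmb4, Psmd7, Usp14, Hspa4 and Hpd, Cutal and Emc9 were added after their values or positions were seen. Members and lists were chosen with earlier results of these data known. Alternatives were other totals and scalings, cell filters, cell sets and level floors. Protein sequences were not analysed here.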

Additional observations from a re-analysis of the deposited data

Results flagged for a closer look

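The members given here had enough counts in EpA cells (50 CPM, or 5 CPM for immune members) and ratios on opposite sides of no difference, beyond the counting interval of each, in EpA cells and in kept cells outside EpA. There were 4 such members and the immune sum. The difference between the sets was not tested, since each rests on 1 library per condition, and the cells outside EpA were of different kinds in the libraries. The gap between the log2 ratios, EpA minus outside, was 2.73 for Psmb10 (1.58 and -1.15), 2.27 for Psmb8 (1.23 and -1.04) and 1.65 for Psme1 (1.01 and -0.64). It was 1.78 for the summed immune members (0.99 and -0.79). Psmd9 had the opposite gap, -1.38 (-0.49 and 0.90). Psmb9 (0.69 and -1.56) was under the level needed in EpA cells, and for Psme2, Psmd10 and Psmd5, whose ratios also had opposite signs, the interval outside EpA included no difference.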

How the results depend on the processing

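No paired analysis was possible because there is 1 library per condition, and for the same reason no replicate could be left out. The log2 ratio of the summed immune members in EpA cells, 0.99, was 1.85 as UMIs per cell without scaling (where the median of all genes was 0.87), 0.76 with every cell weighted alike, 0.75 with cells thinned, 0.42 over all kept cells and 0.46 over all deposited barcodes. That of the constitutive members, 0.42, was 1.28, 0.25, 0.25, 0.49 and 0.49 in the same order. It was 0.49 with TMM factors, 0.34 without mitochondrially encoded UMIs in the total, 0.48 without those and ribosomal protein UMIs, 0.39 in filtered cells (1000 UMIs or more, less than 10% of them mitochondrially encoded), and 0.37 without cells holding a microglia or endothelial marker. The 10 constitutive members at least 1.5-fold higher became 16 with TMM factors and over all barcodes, 33 as UMIs per cell, 1 with cells weighted alike, 4 thinned and 6 in the filtered cells. As UMIs per cell the median gene was itself past 1.5-fold (log2 ratio 0.87), so the 33 say nothing particular of the proteasome. The share of all genes past a size was not counted under these alternatives. The 3 immune members at least 2-fold higher became 1 with cells weighted alike or a floor of 50 CPM and 0 when thinned, over all kept cells or over all barcodes. They became 2 without mitochondrially encoded UMIs in the total, and 2 without cells holding a microglia or endothelial marker. The gain in immune share, 1.20 points in EpA cells, turned to -0.12 points over all barcodes (4.49% and 4.38%). Outside EpA the difference of -10.1 points was -4.91 with cells weighted alike, -8.52 thinned and -12.2 in filtered cells. It was -9.54 without the microglia-like cluster and -10.2 without the clusters led by S100a9, Cd74 and P2ry12. The cause of these shifts was not tested. Few counts widen the intervals of the scarce members: Psmb9 had 22 UMIs in uninjured EpA cells, and Psma8 and Psmb11 were at or near 0.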
